A study of Mus musculus with 62 samples.

Results

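The cerebellum of mice bearing cachectic melanoma was set against that of mock-injected mice 8 weeks after injection. The comparison comprised 12 of the 62 libraries of the series: all 7 libraries of the group that received cachectic melanoma cells (CAC) and all 5 of the mock-injected group (mock). Groups and replicate numbers were read from the sample descriptions, with which the titles matched. The 5 libraries of mice that received non-cachectic melanoma cells (NCAC) at 8 weeks, and the 5 CAC and 5 mock libraries taken at 6 weeks, served for comparison. All animals were female and 2 months old. No genetic change was introduced, and the melanoma lines are not named in the labels. The sample fields give the strain as C57BL6/J and the series design gives it as NCI Ath/nude, and these files do not settle which applies. Nude mice lack mature T cells, which limits what such a host can show of lymphocyte responses. Each library is called a biological replicate in the labels, although no label ties it to a named animal, so p-values measure the spread between libraries.

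Cachexia is the loss of muscle and fat that accompanies many cancers. Inflammatory cytokines such as interleukin-6 (IL-6) raise acute-phase proteins through the transcription factor STAT3, and adrenal glucocorticoids act through the glucocorticoid receptor on fuel use, metal binding and growth arrest. In the cerebellum the receptor is present in granule neurons, in astrocytes including Bergmann glia, which line the Purkinje cell layer, in oligodendrocytes, which make myelin, and in vessel cells. Expression was measured by poly(A) RNA sequencing and deposited as TPM (a transcript abundance scaled for gene length and to the same total in every library). Differences were tested with limma on log2(TPM + 1). Unless stated otherwise, p-values are limma's, adjusted by the Benjamini-Hochberg method over all 14399 genes tested, and a gene is said to rise or fall in CAC libraries when its adjusted p was under 0.05. Fold changes are log2 differences, CAC minus mock, with their standard error (SE).

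The 12 libraries carried the marker genes of cerebellum. The summed level of the 23 Purkinje cell markers was 9792 to 11129 TPM in CAC and 9526 to 11355 TPM in mock libraries, and that of the 22 granule cell markers was 7139 to 8643 TPM in CAC and 7357 to 8801 TPM in mock libraries. Melanocytic markers summed to 1.72 to 2.76 TPM in CAC and 1.71 to 3.2 TPM in mock libraries, with no excess in CAC libraries. Only 1 of these 9 markers had enough signal to be tested, Pmel, which was lower in CAC libraries (-0.40, adjusted p = 0.00668). The genome build was mm10 and the melanoma lines are not named, so whether this sum would register tumour cells is not known. Mitochondrially encoded genes took 19 ± 1.31% of TPM in CAC and 20.9 ± 1.18% in mock libraries (SD, n = 7 and 5). The exact two-sided permutation p of that difference was 0.0328, and 0.131 after adjustment over the 4 transcript classes examined. Leaving out CAC replicate 3, 4 or 5 or any mock library but replicate 2 took the unadjusted p to between 0.0563 and 0.0727. Choroid plexus genes took 0.455 ± 0.203% in CAC and 0.409 ± 0.135% in mock libraries (exact permutation p = 0.591), and haemoglobin and other red cell genes took 0.398 ± 0.729% in CAC and 0.15 ± 0.0522% in mock libraries (exact permutation p = 0.836). In these bulk samples, fewer cells of a type and less RNA per cell cannot be told apart.

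CAC replicate 3 stood apart from its group. Its correlation across all tested genes was 0.9874 to 0.9916 with the mock libraries and 0.9819 to 0.9887 with the other CAC libraries, whereas the other 6 CAC libraries correlated at 0.9767 to 0.9897 with mock. It also held the most red cell transcript, 2.04% of its TPM. Mock replicate 5 carried immunoglobulin and MHC class II transcripts: its lymphocyte and class II genes summed to 904 TPM, against 23.5 to 45.6 TPM in the CAC libraries and a median of 40.9 TPM over the mock libraries. Some of the results below are also given without these libraries.

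Of the 14399 genes, 1933 (13.4%) were higher and 1057 (7.34%) lower in CAC than in mock libraries, together 20.8%. With only the CAC and mock libraries of 8 weeks in the fit, 1161 were higher and 487 lower, 1648 in all. In the fit of all groups, 4882 (33.9%) had an unadjusted p under 0.05. The median gene differed by 0.021. Only 161 genes (1.12%) rose and 80 (0.556%) fell by at least 1.5-fold. The 80 included Igkc (-2.37), H2-Eb1 (-1.52) and Cd74 (-1.18), of the lymphocyte and class II genes whose sum was highest in mock replicate 5. Of 6 tested genes of that list 5 fell and 0 rose (median -1.1). Their share of TPM differed by -0.0186 percentage points between the groups, and by -0.00154 without mock replicate 5. In 647 genes (4.49%) the groups did not overlap at all, with every CAC library above every mock library in 467 and below in 180. Without CAC replicate 3 that number was 1407, and without mock replicate 2 or 5 it was 1342 or 998. Higher calls made up 64.6% of all calls, a share that was 49.4% with median-of-ratios scaling, 47% with quantile normalization and 41.8% with mitochondrially encoded genes removed from the total, so the balance of small changes in either direction depended on the scaling. No gene said below to rise or fall changed direction under these scalings. Without CAC replicate 3, 2196 genes (15.3%) were higher and 1325 (9.2%) lower.

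**Figure D1:**
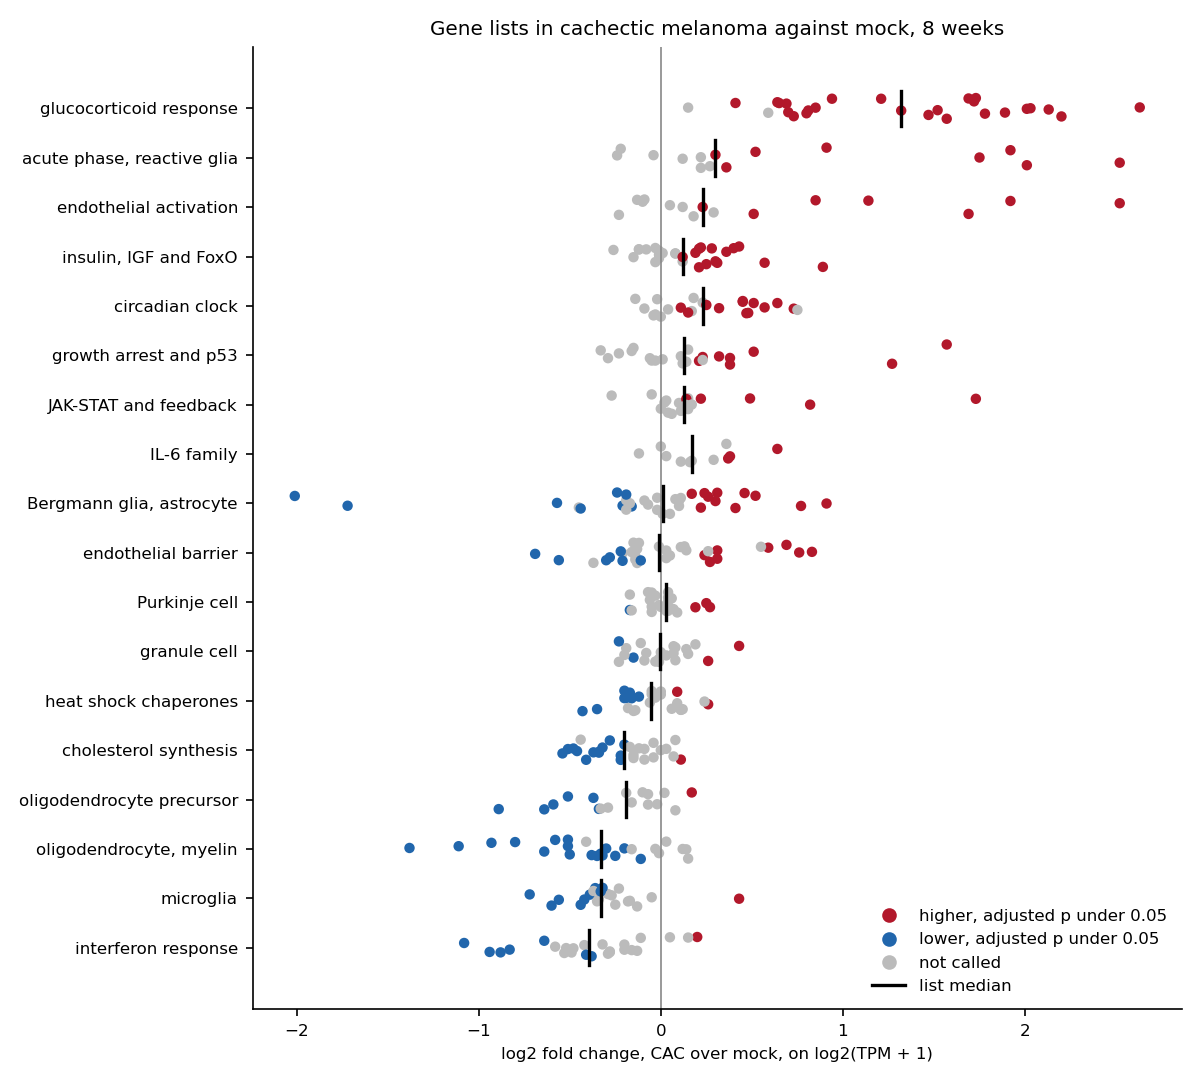
Log2 fold change (CAC over mock, 8 weeks, x axis) of each tested gene in 18 gene lists (y axis). Points are genes, coloured by call, and black bars are list medians, from 1.3 for glucocorticoid response genes to -0.39 for interferon response genes. The lymphocyte and class II list (median -1.1) is not drawn.

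Some genes of the acute-phase and reactive glia list rose in CAC cerebellum, and the usual markers of reactive glia did not pass the test. Of the 26 genes of this list, 15 had enough signal to be tested, and 8 of these rose and 0 fell, against 13.4% and 7.34% over all genes. The list median was 0.3, against 0.021 over all genes. This list and those below were chosen with earlier results of these data known, so their counts are descriptions. The 8 included Lrg1, a secreted glycoprotein made by liver and endothelium in inflammation, Lcn2, an iron-siderophore binding protein, Ch25h, which makes the oxysterol 25-hydroxycholesterol, and the serine protease inhibitors Serpina3h and Serpina3n. Serpina3 genes are near-identical copies, and how reads shared between them were assigned is not given in the sources used here.

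Lrg1 (chr17:56119678-56122001, minus strand, mm10) measured 6.57 to 22.9 TPM in CAC libraries (median 17.3), against 1.82, 1.6, 1.76, 1.9 and 2.8 TPM in mock libraries. The lowest CAC library, replicate 3, was still above every mock library (2.52 ± 0.24, SE; adjusted p = 8.86e-11). Lcn2 (chr2:32384633-32388252, minus strand) had 12.9 TPM in CAC replicate 3 and 1.85 to 5.88 TPM in the other CAC libraries, against 1, 0.179, 0.349, 0.349 and 0.492 TPM in mock libraries (2.01 ± 0.22, adjusted p = 1.35e-08). Replicate 3 was thus the lowest CAC library for the first gene and the highest for the second. Serpina3h behaved like Lcn2, with 11.5 TPM in CAC replicate 3 and 3.53 to 5.23 TPM in the other CAC libraries, against 0.49, 0.328, 1.02, 0.574 and 1.29 TPM in mock libraries (1.75 ± 0.24, adjusted p = 8.84e-07). Ch25h ranged from 2.67 to 6.78 TPM in CAC libraries (median 4.68), against 0.65, 0.209, 0.339, 0.271 and 0.956 TPM in mock libraries, with no overlap (1.92 ± 0.21, adjusted p = 8.83e-09). Serpina3n, by contrast, was at 8.33 TPM in CAC replicate 3, inside the mock range of 6.21 to 15.6 TPM, and between 13.7 and 28.6 TPM in the other CAC libraries (0.91 ± 0.23, adjusted p = 0.00318). The usual astrocyte reactivity markers did not pass the test: Gfap, the astrocytic intermediate filament, had a difference of 0.27 (adjusted p = 0.207) and the filament gene Vim one of -0.04 (adjusted p = 0.889). The remaining listed genes that did not pass were S100a10 (-0.24, adjusted p = 0.127), Cd44 (-0.22, adjusted p = 0.11), Timp1 (0.22, adjusted p = 0.363), Aspg (0.22, adjusted p = 0.18) and Hspb1 (0.12, adjusted p = 0.666).

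CAC replicate 3 was the highest of the 7 for some further transcripts linked to inflammation, whose cell source is not shown by bulk RNA. The prostaglandin synthase gene Ptgs2 was at 3.69 TPM there, against 0.818 to 1.82 TPM in the other CAC libraries and 0.441 to 0.785 TPM in mock libraries. The leukocyte adhesion genes were also highest there, with the other CAC libraries at about the mock level: Icam1 had 10.3 TPM in this library, 3.43 to 7.08 TPM in the other CAC libraries and 3.13 to 7.44 TPM in mock libraries, and Vcam1 had 24.3 TPM, against 11.4 to 14.9 TPM in other CAC and 12.1 to 16.2 TPM in mock libraries. Neither Icam1 (0.29, adjusted p = 0.223) nor Vcam1 (0.05, adjusted p = 0.805) passed the test between the groups.

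**Figure D2:**
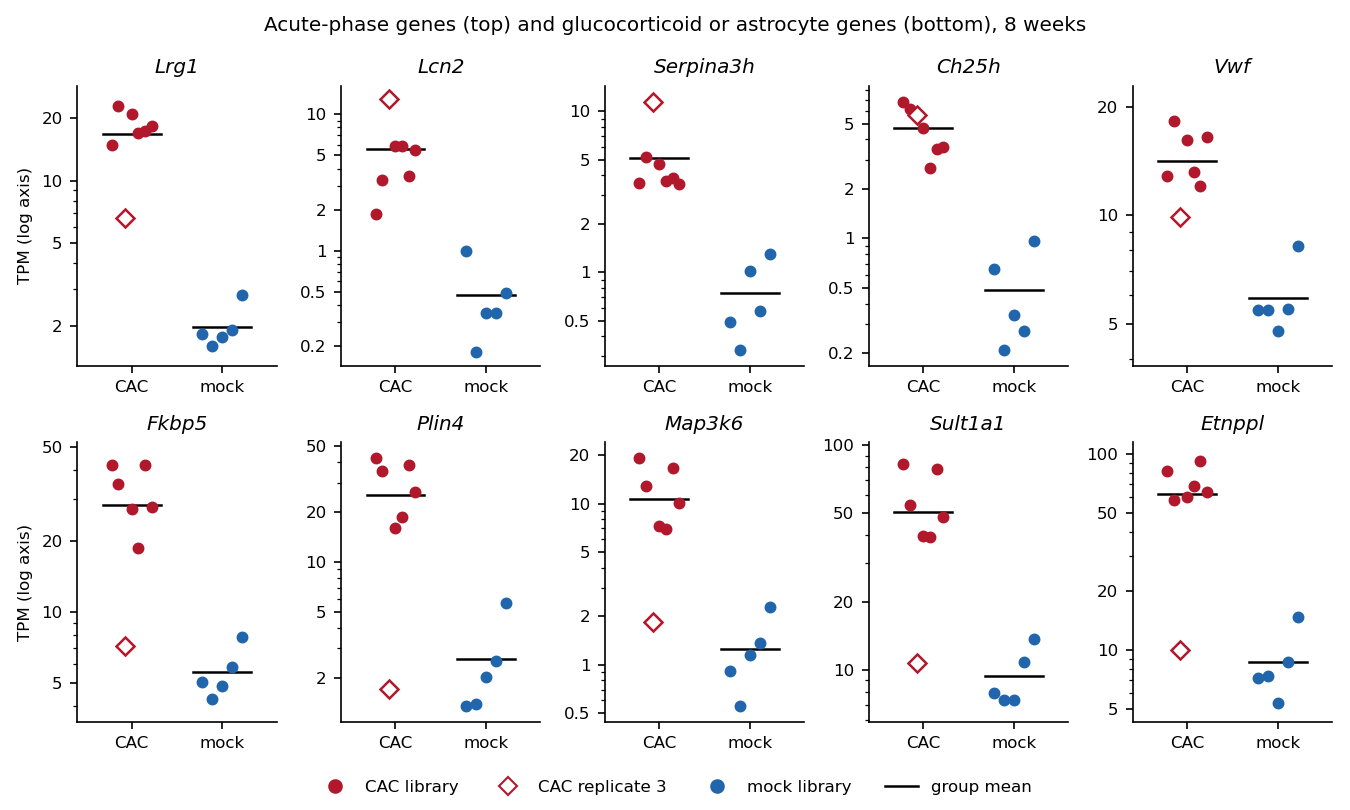
TPM per library on a log axis, CAC (red, n = 7) left of mock (blue, n = 5), for 5 acute-phase or vascular genes (top) and 5 glucocorticoid or astrocyte genes (bottom); black bars are group means. CAC replicate 3 (open diamond) is the highest CAC library for Lcn2 (12.9 TPM) and Serpina3h (11.5 TPM) and lies within the mock range for Fkbp5 (7.14 TPM) and Etnppl (9.99 TPM).

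Some receptors and feedback genes of the IL-6 family rose, whereas transcripts of the ligands Il6, Lif and Osm were near 0. IL-6 family cytokines signal through the shared subunit gp130, encoded by Il6st, paired with a ligand-specific receptor. Of 14 such genes, 11 were tested, and 3 rose and 0 fell, against 13.4% and 7.34% over all genes. Those that rose were Osmr, the oncostatin M receptor, Cntfr, the ciliary neurotrophic factor receptor, and Il6ra, the IL-6 receptor. Osmr measured 1.99 to 2.96 TPM in CAC libraries (median 2.37), against 1.17, 1.08, 1.22, 1.13 and 1.3 TPM in mock libraries, with no overlap (0.64 ± 0.11, adjusted p = 3.89e-05). Il6ra ranged from 2.17 to 3.07 TPM in CAC libraries, also above the mock range of 1.43 to 2 TPM (0.37, adjusted p = 0.00276). Il6st was level, at 40.5 to 52.9 TPM in CAC and 47 to 49.3 TPM in mock libraries (0.00 ± 0.057, adjusted p = 0.988). The ligand genes Il6, Lif and Osm did not exceed 0.103, 0.201 and 0.165 TPM in any CAC library or 0.0759, 0.222 and 0.0828 TPM in any mock library, and were too low to be tested. Other ligand genes were tested and did not pass: Il11 (-0.12, adjusted p = 0.475), Clcf1 (0.11, adjusted p = 0.666), Cntf (0.36, adjusted p = 0.277) and Ctf1 (0.03, adjusted p = 0.86).

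Downstream of these receptors, 5 of 18 tested JAK-STAT and feedback genes rose and 0 fell, against 13.4% and 7.34% over all genes. Those that rose were Cebpd, Socs3, Pim3, Stat3 and Stat5b. Cebpd, a transcription factor of the acute-phase response, measured 9.7 to 16.5 TPM in CAC libraries (median 11.9), against 3.42, 1.67, 2.25, 3.33 and 5.39 TPM in mock libraries, with no overlap (1.73 ± 0.33, adjusted p = 0.000172). Socs3, the feedback inhibitor of gp130 signalling, measured 2.87 to 4.72 TPM in CAC libraries (median 3.51), against 2.31, 1.56, 1.17, 1.36 and 1.69 TPM in mock libraries (0.82 ± 0.12, adjusted p = 2.8e-06). Unlike many of the genes below, both were clear of the mock range in CAC replicate 3. Stat3 itself was 19.5 to 23.5 TPM in CAC and 17.2 to 18.9 TPM in mock libraries, a small difference without overlap (0.22 ± 0.047, adjusted p = 0.000609). The receptor for interleukin-1, Il1r1, rose by 0.85 ± 0.13 (adjusted p = 1.33e-05), with 5.72 to 10.7 TPM in CAC and 2.87 to 4.38 TPM in mock libraries, while its ligand gene Il1b was at 0.484 to 1.3 TPM in CAC and 0.69 to 1.29 TPM in mock libraries. The STAT motif TTCNNNGAA was searched on both strands of RefSeq promoters (250 bases before to 50 after the start, GRCm38.p6). Among 16 listed JAK-STAT genes, which have 20 promoters, it was found for Socs3 and for Cish, another feedback inhibitor. Cish did not pass the test (0.06, adjusted p = 0.725). Among 20 listed acute-phase genes, which have 22 promoters, it was found for Emp1, Fgb, Gfap and Steap4. The motif was present in 8.3% of all 32851 promoters. The stretch of the Socs3 promoter that holds it (chr11:117969447-117969566, minus strand) is shown with the motif in capitals, because Socs3 is the feedback gene of this pathway.
Socs3: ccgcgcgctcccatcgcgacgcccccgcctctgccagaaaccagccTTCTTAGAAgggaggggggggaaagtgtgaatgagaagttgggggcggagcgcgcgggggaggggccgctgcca

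Genes known to respond to glucocorticoids rose as a group. Of 27 tested members, 25 rose and 0 fell, against 13.4% and 7.34% over all genes. The list median was 1.3, against 0.021 over all genes. The list was drawn up with earlier results of these data known, so its count is a description. The members that did not pass were Dusp1 (0.59, adjusted p = 0.361) and Nfkbiz (0.15, adjusted p = 0.138). In 13 of the 27 every CAC library lay above every mock library, where this held for 3.24% of all genes. Cytokines also induce some members, such as Lcn2 and Cebpd, so the list overlaps with the acute-phase and STAT genes above.

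Fkbp5 (chr17:28399094-28517527, minus strand), a co-chaperone that restrains the glucocorticoid receptor, had 18.6 to 42 TPM in 6 CAC libraries and 7.14 TPM in replicate 3, against 5.03, 4.26, 4.86, 5.81 and 7.82 TPM in mock libraries (2.03 ± 0.34, adjusted p = 2.71e-05). Plin4, which coats lipid droplets, had 16 to 42.2 TPM in 6 CAC libraries and 1.7 TPM in replicate 3, against 1.35, 1.38, 2.01, 2.53 and 5.67 TPM in mock libraries (2.63 ± 0.54, adjusted p = 0.000381). Map3k6, a stress-activated kinase, had 6.92 to 19.2 TPM in 6 CAC libraries and 1.83 TPM in replicate 3, against 0.915, 0.552, 1.15, 1.37 and 2.28 TPM in mock libraries (2.20 ± 0.36, adjusted p = 2.29e-05). For these 3 genes, 6 CAC libraries were above every mock library and replicate 3 was inside the mock range. Without replicate 3 the differences were 2.31, 3.12 and 2.50.

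Other members stayed above the mock range even in CAC replicate 3. Sgk1, a kinase that regulates ion transport, measured 63.7 to 124 TPM in CAC libraries (median 96.4), against 40.6, 38.6, 41, 39.5 and 45.5 TPM in mock libraries (1.21 ± 0.19, adjusted p = 1.33e-05). Klf9, a transcription factor induced by both glucocorticoids and thyroid hormone, was at 228 to 311 TPM in CAC and 180 to 208 TPM in mock libraries (0.41 ± 0.074, adjusted p = 8e-05). Ddit4, an inhibitor of mTORC1, was at 104 to 146 TPM in CAC and 62.2 to 74.5 TPM in mock libraries (0.81 ± 0.12, adjusted p = 2.54e-06). Further members that rose were Zbtb16 (1.89), Hif3a (1.78), Arrdc2 (1.47), Tsc22d3 (0.94), which encodes the anti-inflammatory protein GILZ, Klf15 (0.85) and Errfi1 (0.64).

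The glucocorticoid response element was searched on both strands as GNACA and TGTNC with any 3 bases between them. It was present in the promoter windows of Map3k6, Mt1 and Sgk1, among 22 listed genes, which have 32 RefSeq promoters. Of all promoters 0.475% held it. A match is a description of the letters in this window. The 3 stretches are shown because these genes are among those described by library here, with the element in capitals: Sgk1 (chr10:21993660-21993779, plus strand), Map3k6 (chr4:133240588-133240707, plus strand) and Mt1 (chr8:94178939-94179088, plus strand), all GRCm38.p6.
Sgk1: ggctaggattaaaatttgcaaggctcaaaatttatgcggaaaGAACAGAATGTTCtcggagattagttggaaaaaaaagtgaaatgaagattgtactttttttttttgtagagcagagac
Map3k6: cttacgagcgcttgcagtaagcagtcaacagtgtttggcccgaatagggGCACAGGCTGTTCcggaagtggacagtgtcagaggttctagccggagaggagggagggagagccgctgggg
Mt1: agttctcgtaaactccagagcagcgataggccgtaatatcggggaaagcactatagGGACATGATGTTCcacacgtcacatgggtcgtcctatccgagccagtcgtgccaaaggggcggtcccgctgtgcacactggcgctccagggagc

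The receptor and its helpers moved little. Nr3c1, which encodes the glucocorticoid receptor, was at 43.5 to 65.9 TPM in CAC and 61.8 to 66.4 TPM in mock libraries (-0.19 ± 0.063, adjusted p = 0.0246), and its call was lost when CAC replicate 1, 2 or 6 or mock replicate 4 was left out. The chaperone Hsp90aa1, which holds the receptor ready for hormone, fell without overlap, at 805 to 864 TPM in CAC and 912 to 988 TPM in mock libraries (-0.19 ± 0.039, adjusted p = 0.00045). Hsd11b1, which regenerates active hormone inside cells, did not pass the test (-0.09, adjusted p = 0.403), nor did the mineralocorticoid receptor gene Nr3c2 (0.12, adjusted p = 0.18). Of 15 tested genes of this machinery, 5 rose and 4 fell, against 13.4% and 7.34% over all genes. Under the 3 other scalings 2 or 3 of them rose and 5 or 6 fell. Heat shock and chaperone genes included 2 that rose and 9 that fell of 26, set against the same shares. The small heat shock protein Cryab was among the 9 (-0.43 ± 0.1, adjusted p = 0.00193).

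Metallothioneins, which bind zinc and copper, were among the most abundant transcripts that rose. Mt1 measured 997 TPM in CAC replicate 3 and 1767 to 2728 TPM in the other CAC libraries, against 678, 609, 689, 687 and 788 TPM in mock libraries (1.52 ± 0.2, adjusted p = 8.84e-07). Mt2 measured 769 to 2124 TPM in CAC libraries (median 1490), against 382, 365, 450, 459 and 619 TPM in mock libraries (1.72 ± 0.27, adjusted p = 8.18e-06). Neither gene overlapped between the groups, and replicate 3 was the lowest CAC library for both. Iron handling genes moved in both directions. The ferroxidases Heph (0.65 ± 0.13, adjusted p = 0.000397) and Cp (0.52 ± 0.11, adjusted p = 0.000585) rose, whereas Slc40a1, the iron exporter ferroportin, fell to 1.64 to 3.21 TPM in CAC libraries, against 5.31, 4.66, 4.23, 4.9 and 3.85 TPM in mock libraries, with no overlap (-0.69 ± 0.12, adjusted p = 2.86e-05). Tfrc, the transferrin receptor, did not pass the test (0.26, adjusted p = 0.107). Over the list of metal handling genes, 7 of 19 rose and 2 fell, against 13.4% and 7.34% over all genes. Metal response element cores (TGCACNC or TGCGCNC) lay in the promoters of 7 of 14 listed genes, which have 19 promoters, and in 25.7% of all promoters. These genes were Mt1, Mt2, Mt3, Slc30a1, Slc30a10, Slc39a8 and Tfrc, of which Slc30a1, Slc30a10, Slc39a8 and Tfrc did not pass the test.

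Some genes of astrocyte nitrogen and amino acid handling rose. Etnppl, an astrocyte enzyme that breaks down phosphoethanolamine, had 58.3 to 91.5 TPM in 6 CAC libraries and 9.99 TPM in replicate 3, against 7.23, 7.36, 5.37, 8.67 and 14.8 TPM in mock libraries (2.55 ± 0.41, adjusted p = 1.7e-05). Prodh, proline dehydrogenase, had 39.6 to 55.7 TPM in 6 CAC libraries and 16.4 TPM in replicate 3, against 13.7, 15, 14.1, 13.9 and 15 TPM in mock libraries (1.42 ± 0.2, adjusted p = 2.41e-06). Replicate 3 was near the mock level for both and above every mock library only for Prodh. Glul, glutamine synthetase, which detoxifies ammonia in astrocytes, measured 962 to 1614 TPM in CAC libraries (median 1395), against 875, 773, 817, 853 and 908 TPM in mock libraries (0.72 ± 0.13, adjusted p = 9.43e-05). Over the whole list, 10 of 33 amino acid and nitrogen genes rose and 3 fell, against 13.4% and 7.34% over all genes, with a median of 0.073. The genes that fell were the amino acid transporters Slc7a10 (-0.44, adjusted p = 6.4e-06), Slc38a3 (-0.26, adjusted p = 0.000395) and Slc6a9 (-0.25, adjusted p = 0.000105), and 6 rose with mitochondrially encoded genes removed from the total.

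Fuel genes moved in both directions. The insulin-responsive glucose transporter gene Slc2a4 measured 8.18 to 16.6 TPM in CAC libraries (median 12.6), against 5.52, 6.41, 5.89, 6.24 and 7.58 TPM in mock libraries (0.88 ± 0.14, adjusted p = 2.05e-05). Slc2a1, the glucose transporter of brain endothelium and astrocytes, was at 116 to 178 TPM in CAC and 76.9 to 108 TPM in mock libraries (0.59 ± 0.14, adjusted p = 0.00238). Both were above the mock range in every CAC library. Of 22 tested genes of glycolysis and glucose uptake 5 rose and 8 fell, against 13.4% and 7.34% over all genes. The 8 were all enzyme genes, among them Hk2, a hexokinase (-0.44 ± 0.11, adjusted p = 0.00293), and Ldha, lactate dehydrogenase (-0.28 ± 0.069, adjusted p = 0.00287). The 5 that rose also included enzyme genes, Aldoc (0.27, adjusted p = 0.000335) and Pfkm (0.12, adjusted p = 0.0049). Pdk4, which shuts pyruvate out of the citric acid cycle, rose to 26.1 to 43.1 TPM in 6 CAC libraries and was 12.2 TPM in replicate 3, against 11.2, 7.72, 10.8, 12.6 and 15.1 TPM in mock libraries (1.32 ± 0.28, adjusted p = 0.000449). Pnpla2, the lipase that opens triglyceride stores, rose by 0.87 ± 0.14 (adjusted p = 1.83e-05), with 27.6 to 75.6 TPM in CAC and 23.2 to 28.4 TPM in mock libraries. Ketone and fatty acid oxidation genes showed no common direction, with 6 of 27 higher and 3 lower against 13.4% and 7.34% over all genes, and Slc16a1, a lactate and ketone transporter, was lower (-0.28 ± 0.096, adjusted p = 0.0288), a call that ended when CAC replicate 1, 6 or 7, or mock replicate 1 or 2, was omitted.

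Some insulin, IGF and FoxO genes rose, mostly by little. Of 28 tested, 14 rose and 0 fell, against 13.4% and 7.34% over all genes, with a median of 0.12. Under the 3 other scalings 10 or 11 rose and 1 fell. Foxo1, a transcription factor active when insulin signalling is low, had 18.1 to 30.9 TPM in 6 CAC libraries and 12.8 TPM in replicate 3, against 10.6, 10.9, 9.82, 11.3 and 14.8 TPM in mock libraries (0.89 ± 0.14, adjusted p = 1.72e-05). The receptors Insr (0.21 ± 0.04, adjusted p = 0.000139) and Igf1r (0.28 ± 0.063, adjusted p = 0.000821) rose without overlap between the groups. Of 23 tested atrophy and autophagy genes 5 rose and 2 fell, with a median of 0.057 and against 13.4% and 7.34% over all genes. Those that rose included Map1lc3b, an autophagosome protein (0.17, adjusted p = 0.000481), and Sesn1, an inhibitor of mTORC1 (0.23, adjusted p = 0.00222). Fbxo32, the ubiquitin ligase atrogin-1, fell to 4.73 to 6.23 TPM in CAC libraries, against 8.78, 6.73, 7.46, 7.24 and 6.67 TPM in mock libraries (-0.38 ± 0.08, adjusted p = 0.000551), and Trim63, encoding MuRF1, was at or below 0.29 TPM in every library of both groups.

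Growth arrest genes rose in 8 of 22 tested and fell in 0, against 13.4% and 7.34% over all genes. Cdkn1a, the cell cycle inhibitor p21, had 43.7 to 104 TPM in 6 CAC libraries and 20.4 TPM in replicate 3, against 19, 16.3, 17.2, 20.5 and 21.8 TPM in mock libraries (1.57 ± 0.26, adjusted p = 2.17e-05). Txnip, an inhibitor of thioredoxin and of glucose uptake, measured 33.8 to 79 TPM in CAC libraries (median 68.8), against 23.9, 23.7, 20.3, 22.1 and 25.5 TPM in mock libraries, with no overlap (1.27 ± 0.22, adjusted p = 3.36e-05). The antioxidant enzyme gene Gpx3 rose by 1.5 ± 0.28 (adjusted p = 0.000129), with 29.9 to 53 TPM in 6 CAC libraries, 9.85 TPM in replicate 3 and 7.16 to 18.5 TPM in mock libraries.

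Circadian clock genes rose in 12 of 23 tested and fell in 0, against 13.4% and 7.34% over all genes, with a median of 0.23. Under each of the 3 other scalings 10 rose. The time of day of tissue collection is not given in the labels, and its part in these values was not tested. Bhlhe40, a clock repressor, measured 100 to 141 TPM in CAC libraries (median 116), against 75.9, 75.9, 80.1, 77.9 and 88 TPM in mock libraries, with no overlap (0.57 ± 0.099, adjusted p = 5.42e-05). The period gene Per3 also did not overlap, at 26.3 to 29.4 TPM in CAC and 18.1 to 26 TPM in mock libraries (0.45 ± 0.1, adjusted p = 0.00108). Per1, which glucocorticoids induce directly, rose by 0.73 ± 0.26 (adjusted p = 0.0382), and its call was lost when any of 8 single libraries was left out. The call of Ciart (0.64, adjusted p = 0.0453), another repressor, was lost without any of 9. The activator gene Arntl (-0.14, adjusted p = 0.45) and the output genes Dbp (-0.09, adjusted p = 0.749) and Nr1d1 (-0.00, adjusted p = 0.997) did not pass the test. An E-box, CACGTG, was present for Bhlhe41, Ciart, Cry1, Per1 and Tef, of 18 listed clock genes, which have 27 promoters. Of all promoters 7.15% held one.

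Of the cholesterol synthesis genes 13 of 27 fell, while some genes of cholesterol export rose. In brain, cholesterol is made locally, largely for myelin, under the transcription factor SREBP2, and oxysterols switch on export genes through the liver X receptors. Besides the 13 of 27 synthesis and control genes that fell, 1 rose, against 7.34% lower and 13.4% higher over all genes, with a median of -0.2. Under the 3 other scalings 13 fell and 0 rose. Hmgcs1 (chr13:119690379-119708260, plus strand), an enzyme of an early step of the pathway, measured 79.2 to 121 TPM in CAC libraries (median 90.9), against 158, 144, 142, 119 and 120 TPM in mock libraries (-0.54 ± 0.086, adjusted p = 1.3e-05). The 121 TPM was in replicate 3, and the other 6 CAC libraries were below every mock library. Idi1 (-0.51 ± 0.097, adjusted p = 0.000143), Sqle (-0.48 ± 0.11, adjusted p = 0.00104), Cyp51 (-0.46 ± 0.1, adjusted p = 0.00083), Msmo1 (-0.41 ± 0.09, adjusted p = 0.000737) and Dhcr7 (-0.37 ± 0.099, adjusted p = 0.00498), all enzymes of later steps, fell as well. Insig1, a sterol-sensing regulator of the pathway, did not pass the test (-0.12, adjusted p = 0.402). The sterol response element TCACNCCAC was present for Hmgcs1 only, of 19 listed genes, which have 25 promoters, and in 1.24% of all promoters. Its surroundings (chr13:119690161-119690280, plus strand, GRCm38.p6) are shown because Hmgcs1 led this list, with the element in capitals.
Hmgcs1: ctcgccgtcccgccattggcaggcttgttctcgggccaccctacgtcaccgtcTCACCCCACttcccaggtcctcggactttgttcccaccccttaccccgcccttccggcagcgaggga

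On the export side, 7 of 18 tested genes rose, 2 fell and 9 did not pass, with a median of 0.018. Over all genes 13.4% were higher and 7.34% lower. The 9 that did not pass included the liver X receptors themselves, Nr1h2 (-0.08, adjusted p = 0.3) and Nr1h3 (0.05, adjusted p = 0.794). The 2 that fell were Lcat (-0.47, adjusted p = 0.00188), which esterifies lipoprotein cholesterol, and Npc2 (-0.15, adjusted p = 0.0302), which moves it out of lysosomes. Omitting CAC replicate 2 or 6, or mock replicate 1 or 3, ended the Npc2 call. Abca1, the transporter that loads cholesterol onto lipoproteins, measured 39.7 to 62.5 TPM in CAC libraries (median 49.6), against 29.6, 35.3, 27, 36 and 36.2 TPM in mock libraries, with no overlap (0.58 ± 0.1, adjusted p = 4.3e-05). Srebf1, a liver X receptor target that controls fatty acid synthesis, was at 41.6 to 53.8 TPM in CAC and 32.2 to 37 TPM in mock libraries (0.44 ± 0.067, adjusted p = 8.18e-06). Mylip, a liver X receptor target that encodes a ubiquitin ligase, rose by 0.40 ± 0.12 (adjusted p = 0.0119; lost without mock replicate 3), and Apoe, the main lipoprotein of brain, by 0.17 ± 0.049 (adjusted p = 0.0125; 0.06, adjusted p = 0.391 with quantile normalization).

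Oligodendrocyte genes were lower in CAC libraries, unevenly across the list. Of 25 tested myelin and oligodendrocyte genes 17 fell and 0 rose, against 7.34% lower and 13.4% higher over all genes, with a median of -0.33. Their summed level was 2886 to 3587 TPM in CAC and 3437 to 4727 TPM in mock libraries. Opalin (chr19:41061710-41077113, minus strand), a myelin paranode protein, measured 2.61 to 10.4 TPM in CAC libraries (median 4.55), against 18.8, 15.2, 15, 12.9 and 9.78 TPM in mock libraries (-1.38 ± 0.28, adjusted p = 0.000308). The only overlap came from CAC replicate 3 at 10.4 TPM. Ugt8a, which makes the myelin lipid galactosylceramide, measured 14.5 to 43.4 TPM in CAC libraries (median 24.6), against 57.8, 47.6, 57.7, 43.8 and 38.3 TPM in mock libraries (-0.93 ± 0.15, adjusted p = 2.54e-05). Some structural myelin genes changed less. Mog fell by 0.32 ± 0.092 (adjusted p = 0.00946) and Mbp by 0.25 ± 0.068 (adjusted p = 0.0055), both calls being lost without mock replicate 1. Mal (0.15, adjusted p = 0.273), Mobp (0.12, adjusted p = 0.394) and Cldn11 (0.14, adjusted p = 0.279) did not pass the test.

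Serpinb1a, Klk6 and Il33, which mature oligodendrocytes express, fell as well. Serpinb1a, a protease inhibitor, measured 4.05 to 17.4 TPM in CAC libraries (median 7.58), against 25.6, 20.9, 23.7, 22 and 18.6 TPM in mock libraries (-1.35 ± 0.19, adjusted p = 1.6e-06). Klk6, a myelin-cleaving protease, measured 7.1 to 23 TPM in CAC libraries (median 11.4), against 33.3, 29.8, 37.5, 24.9 and 30.7 TPM in mock libraries (-1.28 ± 0.25, adjusted p = 0.000235). Neither gene overlapped between the groups, replicate 3 included. The alarmin gene Il33 fell by 0.73 ± 0.14 (adjusted p = 0.000208). Among precursor genes 6 of 17 fell and 1 rose, against 7.34% lower and 13.4% higher over all genes. Gpr17, a receptor of cells about to make myelin, measured 3.07 to 10.4 TPM in CAC libraries (median 5.38), against 13.2, 11.4, 13.3, 11.1 and 9.64 TPM in mock libraries (-0.89 ± 0.19, adjusted p = 0.000537), and Bcas1, another gene of that stage, fell by 0.51 ± 0.095 (adjusted p = 0.000131). Pdgfra, the defining receptor of precursors, did not pass (0.08 ± 0.076, adjusted p = 0.459).

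**Figure D3:**
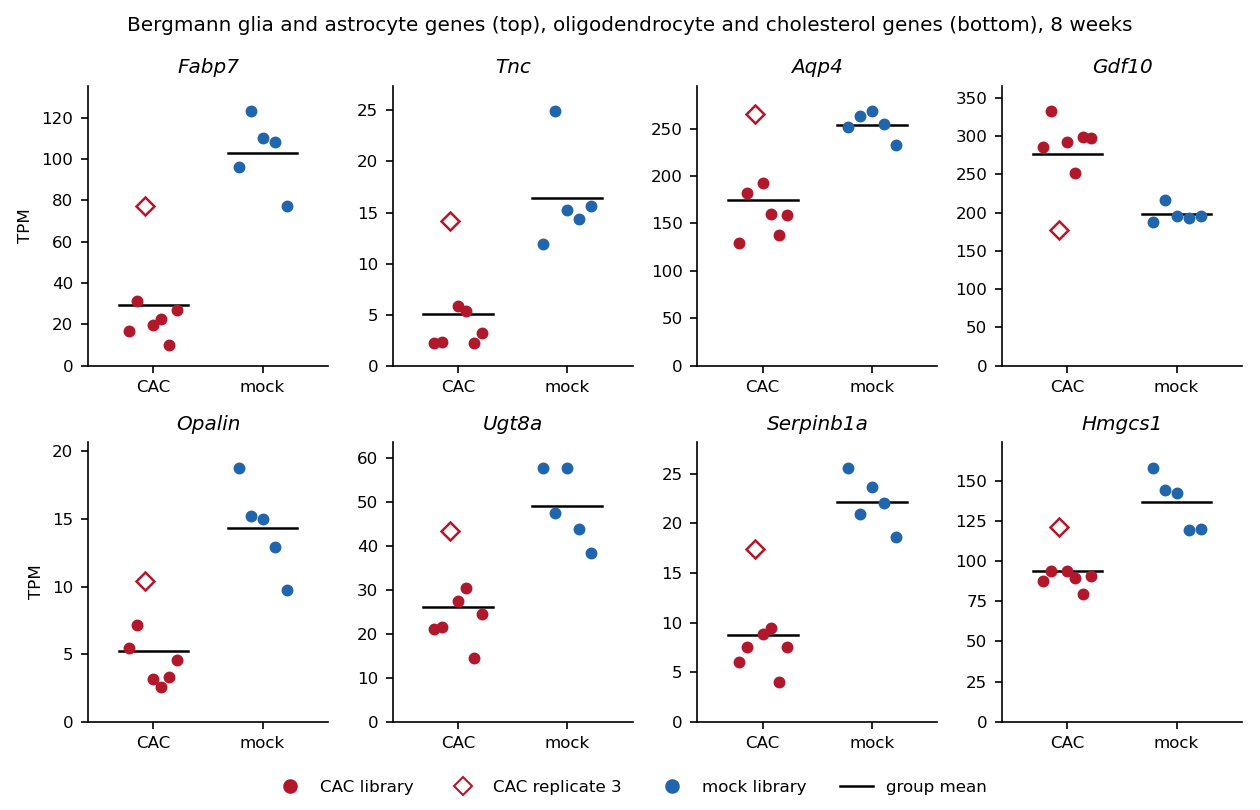
TPM per library, CAC (red, n = 7) left of mock (blue, n = 5), for 4 Bergmann glia or astrocyte genes (top) and 4 oligodendrocyte or cholesterol genes (bottom); black bars are group means and the open diamond is CAC replicate 3. Fabp7 is at 77.1 TPM in that library and 10.1 to 31.3 TPM in the other CAC libraries.

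Bergmann glia and astrocyte genes moved in both directions. Of 33 tested, 11 rose and 8 fell, against 13.4% and 7.34% over all genes, with a median of 0.013. Fabp7 (chr10:57784881-57788450, plus strand), the brain fatty acid binding protein of radial and Bergmann glia, had 10.1 to 31.3 TPM in 6 CAC libraries and 77.1 TPM in replicate 3, against 95.9, 123, 110, 108 and 77.4 TPM in mock libraries (-2.01 ± 0.34, adjusted p = 3.8e-05). Tnc, the matrix glycoprotein tenascin-C, had 2.2 to 5.82 TPM in 6 CAC libraries and 14.2 TPM in replicate 3, against 11.9, 24.9, 15.2, 14.4 and 15.6 TPM in mock libraries (-1.72 ± 0.28, adjusted p = 2.42e-05). The water channel gene Aqp4 fell to 129 to 193 TPM in 6 CAC libraries and was 265 TPM in replicate 3, against 252, 263, 268, 255 and 233 TPM in mock libraries (-0.57 ± 0.12, adjusted p = 0.000354). In all 3 genes the other 6 CAC libraries lay below every mock library and replicate 3 was at the mock level or just below it.

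Other astrocyte genes rose in the same libraries. Agt, angiotensinogen, had 129 to 242 TPM in 6 CAC libraries and 79.8 TPM in replicate 3, against 76.3, 98.2, 83.7, 104 and 90 TPM in mock libraries (0.91 ± 0.17, adjusted p = 0.000155). Gjb6, the astrocyte connexin 30, had 147 to 182 TPM in 6 CAC libraries and 86.9 TPM in replicate 3, against 73.1 to 111 TPM in mock libraries (0.77 ± 0.17, adjusted p = 0.000631). Gdf10, a growth factor particular to Bergmann glia in cerebellum, had 251 to 332 TPM in 6 CAC libraries and 177 TPM in replicate 3, against 188 to 216 TPM in mock libraries (0.46 ± 0.11, adjusted p = 0.00146). The glutamate transporter gene Slc1a3, which marks the same cells, did not pass (0.08 ± 0.046, adjusted p = 0.24).

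Some microglial, interferon and antigen presentation genes were lower in CAC than in mock libraries, and some of these differences were smaller without 2 mock libraries. Of 21 tested microglial genes 9 fell and 1 rose (median -0.33), of 26 interferon genes 7 fell and 1 rose (median -0.39), and of 14 MHC class I genes 5 fell and 0 rose (median -0.21). Over all genes 7.34% were lower and 13.4% higher. With mock replicates 3 and 5 both left out, 3 microglial, 3 interferon and 0 MHC class I genes were lower. This alternative was chosen after the data were seen. It also took lower calls over all genes from 1057 to 677, so the list counts alone do not show the part of these 2 libraries. Gbp2, an interferon-induced GTPase, measured 1.98 to 5.05 TPM in CAC libraries (median 3.42), against 6.77, 3.55, 5.6, 5.38 and 11.6 TPM in mock libraries (-0.83 ± 0.18, adjusted p = 0.000832). B2m, the light chain of MHC class I, was 242 TPM in CAC replicate 7 and 138 to 165 TPM in the other CAC libraries, against 239, 195, 334, 177 and 418 TPM in mock libraries (-0.66 ± 0.17, adjusted p = 0.00341). The highest values of both came from mock replicate 5, and with mock replicates 3 and 5 left out the B2m difference was -0.31 (adjusted p = 0.272). CAC replicate 7 was the highest CAC library for several interferon genes, among them Irf7, with 8.36 TPM there, 0.818 to 1.99 TPM in other CAC libraries and 1.12 to 6.84 TPM in mock libraries, and Ifit3, with 58.5 TPM there, 13.8 to 21.5 TPM in other CAC libraries and 19.9 to 47.9 TPM in mock libraries.

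The non-cachectic melanoma group gave a further reading of these lists. Against NCAC libraries, 3 microglial genes were higher and 2 lower in CAC libraries, and 0 interferon and 0 MHC class I genes differed in either direction, where 11.8% of all genes did. P2ry13, a purinergic receptor of resting microglia, was lower against both groups, at 2.12 to 4.42 TPM in CAC libraries (median 2.93), 3.25 to 5.43 TPM in NCAC libraries and 4.27 to 5.29 TPM in mock libraries (-0.51, adjusted p = 0.00539 against NCAC, and -0.60 ± 0.13, adjusted p = 0.000626 against mock). For P2ry12, the related homeostatic marker, the differences were -0.17 (adjusted p = 0.316) against NCAC and -0.39 (adjusted p = 0.00527) against mock. Aif1, a general microglial marker, gave -0.26 (adjusted p = 0.359) against NCAC and -0.72 ± 0.17 (adjusted p = 0.00218) against mock, or -0.41 (adjusted p = 0.147) with mock replicates 3 and 5 left out. Cd14, a microglial and vascular coreceptor for bacterial lipid, was higher than in NCAC (0.78, adjusted p = 0.000502) and in mock libraries (0.43, adjusted p = 0.0395). Without CAC replicate 3, its highest library at 10.1 TPM, the difference from mock was 0.30 (adjusted p = 0.123). Its adjusted p was also above 0.05 in fits that omitted CAC replicate 4, CAC replicate 7 or any of mock replicates 1 to 4.

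**Figure D4:**
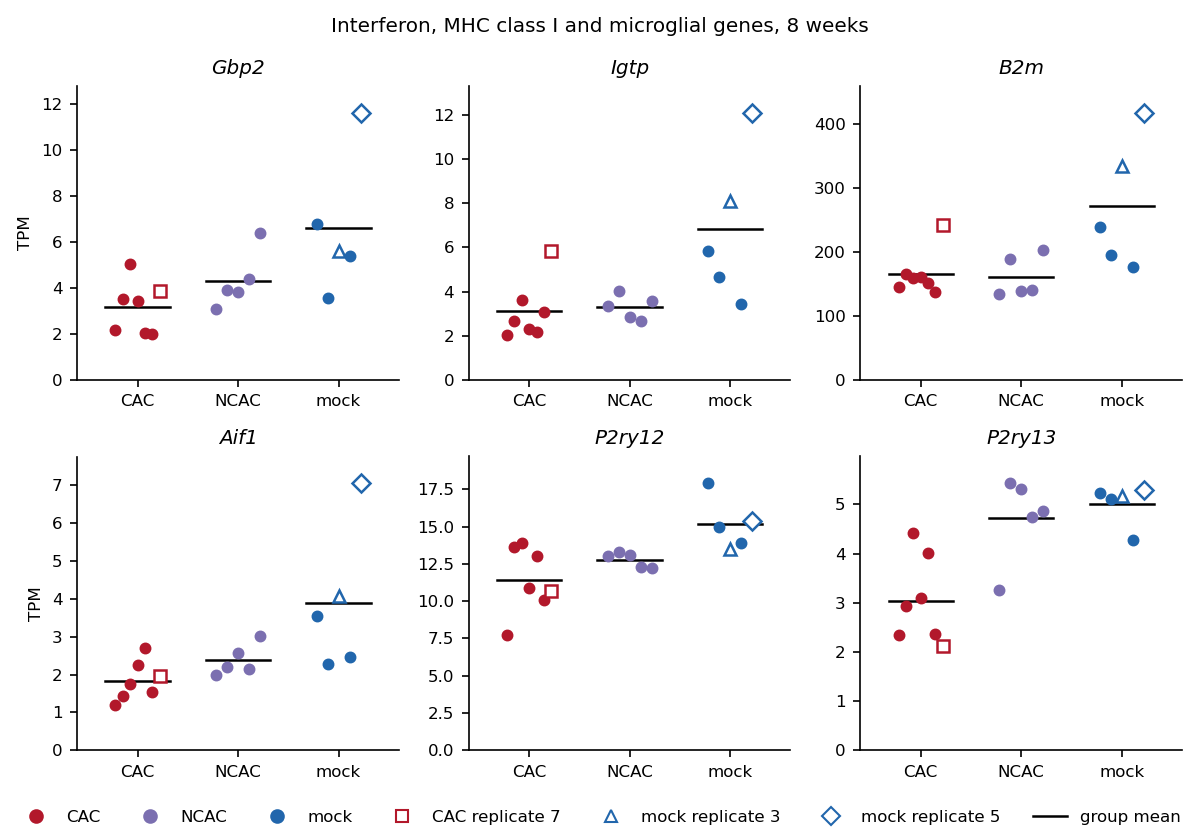
TPM per library in CAC (n = 7), NCAC (n = 5) and mock (n = 5), left to right, for interferon, MHC class I and microglial genes at 8 weeks; black bars are group means and open symbols mark CAC replicate 7 and mock replicates 3 and 5. For B2m the CAC libraries (138 to 242 TPM) overlap the NCAC range (134 to 203 TPM), and mock replicates 3 and 5 reach 334 and 418 TPM.

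Some genes of the vessel wall changed. Endothelial activation genes rose in 7 of 15 tested and fell in 0, against 13.4% and 7.34% over all genes. Lrg1 and Ch25h also stand in the acute-phase list and Tmem252 in the glucocorticoid list. This list too was chosen with earlier results of these data known, so its count is a description. Besides Icam1 and Vcam1, members that did not pass included Ackr1 (0.12, adjusted p = 0.362), Angpt2 (-0.10, adjusted p = 0.607) and Ptges (-0.23, adjusted p = 0.0786). Vwf, the clotting factor stored in endothelium, measured 9.9 to 18.3 TPM in CAC libraries (median 13.2), against 5.45, 5.45, 4.78, 5.51 and 8.2 TPM in mock libraries, with no overlap (1.14 ± 0.15, adjusted p = 4.15e-07). Ly6c1, a surface protein of brain endothelium with close copies in the genome, measured 62.8 to 112 TPM in CAC libraries (median 94.3), against 46.2, 50.3, 55.8, 53.1 and 48.4 TPM in mock libraries, again with no overlap (0.83 ± 0.1, adjusted p = 1.22e-07). Podxl, a sialomucin of the luminal surface, rose by 0.82 ± 0.12 (adjusted p = 4.07e-06), also without overlap. Kdr, the main receptor for VEGF, fell to 2.98 to 5.31 TPM in 6 CAC libraries and was 6.54 TPM in replicate 3, against 8.17, 9.26, 7.42, 6.62 and 6.17 TPM in mock libraries (-0.69 ± 0.13, adjusted p = 0.000125). Mfsd2a, the lipid transporter that keeps the blood-brain barrier tight, had 29.7 to 37.2 TPM in 6 CAC libraries and 12.4 TPM in replicate 3, below the mock range of 13.2 to 21.8 TPM (0.69 ± 0.23, adjusted p = 0.0288; 0.88 without replicate 3). Omitting CAC replicate 5, 6 or 7, or mock replicate 1 or 2, ended its call. The general markers Cldn5, the tight junction claudin (-0.14, adjusted p = 0.572), and Pecam1 (0.11, adjusted p = 0.191) did not pass. Barrier genes as a list gave 8 higher and 7 lower of 33, against 13.4% and 7.34% over all genes, and 0 of 14 mural cell genes were called.

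Matrix genes of glia and vessels moved by gene. Sparc, a matrix-binding glycoprotein that is abundant in cerebellar astrocytes and vessels, measured 963 to 1608 TPM in CAC libraries (median 1425), against 816, 821, 757, 862 and 767 TPM in mock libraries, with no overlap (0.75 ± 0.086, adjusted p = 1.96e-08). Mgp, matrix Gla protein, measured 61.4 to 107 TPM in CAC libraries (median 93.3), against 36, 37.7, 36.2, 46.5 and 49.5 TPM in mock libraries (1.1 ± 0.21, adjusted p = 0.000145). Gkn3, expressed in arterial endothelium of mouse brain, had 0.856 to 3.12 TPM in 6 CAC libraries and 7.7 TPM in replicate 3, against 6.25, 9.23, 9.29, 6.63 and 11.5 TPM in mock libraries (-1.58 ± 0.33, adjusted p = 0.000414).

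Neuronal identity genes were largely level. Of 23 Purkinje cell genes 3 rose and 1 fell, and of 22 granule cell genes 2 rose and 2 fell, shares close to or below the 13.4% and 7.34% over all genes. Pcp2 (0.04 ± 0.051, adjusted p = 0.654) and Calb1 (-0.00 ± 0.04, adjusted p = 0.984), which mark Purkinje cells, and Gabra6 (0.07 ± 0.055, adjusted p = 0.406), which marks granule cells, did not pass the test. Single neuronal genes changed clearly. Synpr, a synaptic vesicle protein, measured 36.6 to 45 TPM in CAC libraries (median 41.3), against 25.2, 27.2, 22.1, 24.1 and 27.7 TPM in mock libraries, with no overlap (0.69 ± 0.079, adjusted p = 1.97e-08). Kcnk9, the potassium leak channel TASK-3 of granule cells, was at 51.4 to 73.4 TPM in CAC and 37 to 47.1 TPM in mock libraries (0.52 ± 0.078, adjusted p = 5.63e-06). Pink1, a kinase of mitochondrial quality control, was at 440 to 511 TPM in CAC and 369 to 400 TPM in mock libraries (0.34 ± 0.04, adjusted p = 3.8e-08). In these 3 genes CAC replicate 3 lay with its own group.

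Some decreases among neuronal genes were not shared by CAC replicate 3. Grm4, the metabotropic glutamate receptor of granule cell terminals, had 193 to 265 TPM in 6 CAC libraries and 392 TPM in replicate 3, against 339, 417, 334, 335 and 325 TPM in mock libraries (-0.51 ± 0.13, adjusted p = 0.00299). Cacna1e, an R-type calcium channel, had 19.7 to 27.3 TPM in 6 CAC libraries and 44.3 TPM in replicate 3, against 33.5 to 43.4 TPM in mock libraries (-0.59 ± 0.15, adjusted p = 0.00294). The neurotrophin gene Ntf3 had 2.55 to 3.92 TPM in 6 CAC libraries and 6.41 TPM in replicate 3, against 4.91 to 6.35 TPM in mock libraries (-0.58 ± 0.16, adjusted p = 0.00796). Neurotransmitter receptor genes as a list gave 2 higher and 6 lower of 41, and ion channel genes 9 higher and 4 lower of 52, against 13.4% higher and 7.34% lower over all genes. The ion channel counts were near those shares. Under the 3 other scalings, 9 receptor genes and 8 or 9 channel genes were lower.

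Single CAC libraries were set against mock in the 241 genes that changed by at least 1.5-fold. These genes were selected on the same libraries, so high counts are built in and only describe how CAC replicate 3 differed from the rest of its group. The 6 other CAC libraries were above every mock library in 141 to 158 of the 161 genes that rose and below every mock library in 61 to 75 of the 80 that fell. CAC replicate 3 was above in 83 and below in 32. Its red cell share of 2.04% was set beside these counts, and its part in them was not tested.

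Against NCAC libraries at 8 weeks, 1117 genes (7.76%) were higher and 578 (4.01%) lower in CAC libraries, together 1695, or 1127 and 1101 without NCAC replicates 4 and 5. Between NCAC and mock libraries 0 genes passed limma's test, with 1038 (7.21%) at an unadjusted p under 0.05. The CAC libraries are common to both comparisons of CAC, so their values are given side by side. Among the 161 genes that rose by at least 1.5-fold against mock, the median was 0.70 against NCAC and 0.80 against mock, and among the 80 that fell it was -0.49 against NCAC and -0.72 against mock. The 80 included lymphocyte and class II genes. Of the 6 tested genes of that list, 0 were lower and 0 higher against NCAC (median 0.1), and 5 were lower against mock (median -1.1). For glucocorticoid genes, 23 of 27 were higher against NCAC (median 1.1) and 25 against mock (1.3). For cholesterol synthesis, 12 were lower against NCAC (-0.23) and 13 against mock (-0.2), and for myelin 12 were lower against NCAC (-0.25) and 17 against mock (-0.33). Several leading genes lay at or near the mock range in NCAC libraries. Lrg1 was at 1.85 to 2.84 TPM in NCAC libraries, Fkbp5 at 4.12 to 8.76, Opalin at 11.1 to 15.6, Serpinb1a at 18.1 to 23.3 and Hmgcs1 at 132 to 145 TPM. NCAC ranges extended further past those of mock for Sparc (805 to 1070 TPM), Mt1 (640 to 1458 TPM), Etnppl (3.98 to 35.2 TPM) and Fabp7 (40.8 to 127 TPM). NCAC replicate 3 held the 35.2 TPM of Etnppl and the 40.8 TPM of Fabp7, and the other 4 NCAC libraries had 3.98 to 10.1 TPM and 70.8 to 127 TPM of these genes. The same library was the highest of its group for Plin4, at 8.84 TPM, and for Sult1a1, at 26.1 TPM, and the lowest for Tnc, at 5.3 TPM.

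At 6 weeks, with no library in common, 203 genes (1.41%) were higher and 45 (0.313%) lower in CAC than in mock libraries. Together these are 248 calls, which came to 20 without CAC replicate 1 of that week, to 96 without CAC replicate 2 or mock replicate 5, to 104, 68 and 136 without mock replicates 2, 3 and 4, and came to 527 without CAC replicate 4. With only the 6-week CAC and mock libraries in the fit, 0 genes were called, so the 6-week calls below rest on the spread shared with the other groups. Of the 161 genes that rose by at least 1.5-fold at 8 weeks, 159 had the same sign and 51 were called at 6 weeks, and their median was 0.80 at 8 weeks and 0.54 at 6 weeks. Of the 80 that fell, 74 had the same sign and 9 were called, with medians of -0.72 at 8 weeks and -0.33 at 6 weeks. Choosing the genes on the 8-week values favours larger values at 8 weeks. Lrg1 differed by 2.21 ± 0.25 at 6 weeks (adjusted p = 1.22e-07), with 6.3 to 25.6 TPM in CAC and 1.27 to 2 TPM in mock libraries. Lcn2 (1.24, adjusted p = 0.00392), Ch25h (1.38, adjusted p = 0.000309), Fkbp5 (1.35, adjusted p = 0.0411), Etnppl (1.99, adjusted p = 0.0129) and Tnc (-1.33, adjusted p = 0.017) were also called at 6 weeks. Opalin (-0.96, adjusted p = 0.0836), Fabp7 (-1.14, adjusted p = 0.0926) and Plin4 (1.81, adjusted p = 0.0903) did not pass at 6 weeks, nor did Hmgcs1 (-0.17, adjusted p = 0.354) or Klk6 (-0.20, adjusted p = 0.772).

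The test of the difference itself, the 8-week effect minus the 6-week effect, called 0 genes with limma (2 without CAC replicate 1 of week 6, 1 without mock replicate 2 of week 6), and 1186 (8.24%) had an unadjusted p under 0.05. In limma's ranking the first was Hp1bp3, a chromatin protein, with a difference of 0.20 ± 0.04 (adjusted p = 0.111). For genes called at 8 weeks and not at 6 weeks the difference between the weeks was thus not shown: it was -1.08 ± 0.37 for Klk6 (adjusted p = 0.454), -0.37 ± 0.13 for Hmgcs1 (adjusted p = 0.454), 0.42 ± 0.12 for Synpr (adjusted p = 0.296) and -0.74 ± 0.19 for P2ry13 (adjusted p = 0.273).

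**Figure D5:**
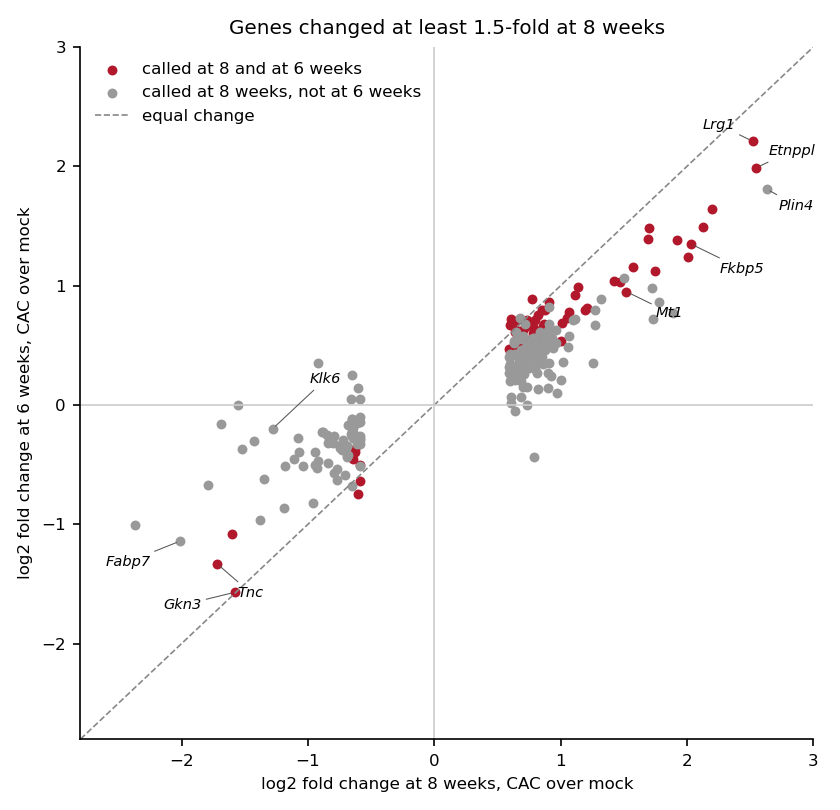
Log2 fold change of CAC over mock at 8 weeks (x axis) and at 6 weeks (y axis) for the 241 genes called with at least 1.5-fold change at 8 weeks; red points were also called at 6 weeks. Of the 161 genes to the right, 159 lie above 0 at 6 weeks, and their median is 0.54 there and 0.80 at 8 weeks; the dashed line marks equal change.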

How the data were processed

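Cerebellar RNA was extracted with Trizol, made into stranded poly(A) libraries and sequenced on an Illumina NovaSeq, per the labels' protocols. The authors deposited 1 table of TPM values for 47643 gene symbols in 62 libraries, 23124 of them at 0 in every library. The genome build was mm10 per the submitters' processing notes; neither the aligner nor the quantifier is named in these sources. TPM keeps no read depth, so no counting interval was given. From the deposited TPM, log2(TPM + 1) was fitted with limma 3.58.1 in R 4.3.3 (trended empirical Bayes, 12 groups, 50 residual degrees of freedom) for the 14399 genes with a mean of at least 1 TPM. Tests were two-sided, with Benjamini-Hochberg adjustment and a threshold of 0.05. Fold changes on this scale understate those of low genes. Shares were compared by exact permutation (Python 3.11.15). The fit was tested on simulated data. Gene positions come from GENCODE M21 (mm10) and promoters from RefSeq (GRCm38.p6). Genes were named from the largest and the most abundant changes, from up to 6 leading members of each list, and from defining markers, ligands, receptors or enzymes given as values. The members and lists were chosen with earlier results of these data known. A treatment field that names cachectic cells for every sample, and a protocol that names another cell line and week, were not used for grouping. Alternatives covered the pseudocount, the filter, 3 scalings, sample weights, the groups fitted, the replicate block, a choroid plexus covariate and each replicate left out. Some genes are not reported here.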

Additional observations from a re-analysis of the deposited data

Results flagged for a closer look

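Over the shares and most of the genes named above, 296 sets of libraries of 1 group were examined for a library far from the rest. Of these sets 39 held one. The limit used is passed by about 1 in 20 sets of independent, normally distributed values. These genes share the same libraries, and some are described above for their value in CAC replicate 3. That rate therefore does not apply here, and the count is a description. CAC replicate 3 was the library in 19, mock replicates 2 and 5 in 4 each, CAC replicate 7 in 3, and CAC replicate 2 and mock replicates 1 and 4 in 2 each. CAC replicates 1, 5 and 6 had 1 each.

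CAC replicate 3 was the highest CAC library for some genes linked to inflammation: Lcn2 at 12.9 TPM, Serpina3h at 11.5 TPM, Ptgs2 at 3.69 TPM and Vcam1 at 24.3 TPM. It was the lowest for Etnppl at 9.99 TPM, Prodh at 16.4 TPM, Glul at 962 TPM, Gjb6 at 86.9 TPM and Mfsd2a at 12.4 TPM. It was the highest for genes that were lower in the group: Hmgcs1 at 121 TPM, Msmo1 at 18.4 TPM, Serpinb1a at 17.4 TPM, Fabp7 at 77.1 TPM, Tnc at 14.2 TPM and Gkn3 at 7.7 TPM. The same held for the neuronal genes Grm4 at 392 TPM, Cacna1e at 44.3 TPM and Ntf3 at 6.41 TPM. Its red cell share was 2.04%, and the next CAC library had 0.233%.

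CAC replicate 7 was the highest CAC library for B2m at 242 TPM, Irf7 at 8.36 TPM and Ifit3 at 58.5 TPM. CAC replicate 2 was highest for Gfap at 181 TPM and lowest for Lif at 0.0218 TPM, replicate 1 highest for Pim3 at 94 TPM, replicate 5 highest for Nr1h3 at 26.2 TPM, and replicate 6 lowest for Nfkbiz at 4.7 TPM.

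Among mock libraries, replicate 5 was highest for Lrg1 at 2.8 TPM, Plin4 at 5.67 TPM and Vwf at 8.2 TPM, and its lymphocyte and class II share was 0.0904%, with 0.00896% in the next. Mock replicate 2 was highest for Tfrc at 87.8 TPM, Tnc at 24.9 TPM and Grm4 at 417 TPM, and lowest in mitochondrially encoded share at 18.9%. Mock replicate 4 was lowest for Heph at 2.26 TPM and P2ry13 at 4.27 TPM, and replicate 1 highest for Cish at 2.83 TPM and lowest for Lcat at 131 TPM.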

How the results depend on the processing

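The alternatives were followed for 138 of the tested genes named here, of which 109 were called. Of these genes 0 reversed under any alternative. The replicate block lost 10 calls and the fit of the compared groups alone lost 8. Against mock at 8 weeks, the 2990 calls became 1894 with the replicate block, 1648 with the compared groups only and 1775 without mock replicates 3 and 5. Higher calls became 1161 with the compared groups only and 1098 without those mock replicates. Lower calls became 1657 with quantile normalization, 1807 with mitochondrially encoded genes removed, 533 with the block, 487 with the compared groups only and 677 without those mock replicates. The calls of at least 1.5-fold came to 147 with a mean of at least 5 TPM. Against NCAC, calls became 2630 with sample weights, 682 with the block and 685 with the compared groups only. At 6 weeks they became 629, 158 and 0 under those 3 settings. The difference between weeks gave 3 calls with no filter, 2 with median-of-ratios scaling, 1 with quantile normalization and 5 with sample weights. The causes were not tested. The numbers shared between groups did not pair the libraries (correlations of deviations from 0.075 down to -0.155), so the block stands only here.

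Leaving out 1 library at a time gave 2120 to 3521 calls against mock (1365 to 2248 higher, 710 to 1325 lower), 198 to 315 of at least 1.5-fold, 677 to 1407 genes without overlap, 1101 to 2304 calls against NCAC, 0 to 0 for NCAC against mock, 0 to 2 between weeks and 20 to 527 at 6 weeks. Differences in share, in percentage points, ran from -2.48 to -1.66 for mitochondrially encoded genes, 0.00354 to 0.0862 for choroid plexus, -0.0234 to -0.00154 for lymphocyte genes, and -0.026 to 0.312 for red cell genes, the -0.026 being without CAC replicate 3. Depth is unknown, which limits what can be said of genes near 0 TPM.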
